A study of Homo sapiens with 8 samples.

Results

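The genes described here are the human translation initiation factors, taken as all protein-coding genes whose symbols start with EIF1 to EIF6. *EIF2AK3* and pseudogenes were left out, and a gene was kept where its level reached an FPKM (fragments per length of transcript, scaled to the mapped fragments of the library) of 1 in at least 2 of the 8 libraries. Of 55 such genes listed, 49 passed this filter, among 10465 genes of all kinds that passed it and 36991 genes listed. The other 6 were *EIF1AY*, *EIF2S3B*, *EIF4E1B*, *EIF4E3*, *EIF4EBP3* and *EIF5AL1*.

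RNA was measured in cell lines made by lentiviral transduction and puromycin selection from MDA-MB-231, a human triple negative breast cancer line. KD cells carried an shRNA against *DAXX*, WT OE cells expressed wild-type *DAXX*, DSM OE cells expressed *DAXX* changed in both of its SUMO-interacting motifs, and control cells carried a scrambled shRNA. Each of the 4 lines has 2 libraries. All came from 1 parental line, and no line with an empty overexpression vector was analysed here. The vector and *DAXX* cannot be told apart in the WT OE and DSM OE cells. The study asked how DAXX, a transcription regulator and histone chaperone that binds SUMO, acts on gene expression in these cells. The labels speak of duplicate cultures in the design and of triplicates in the treatment notes. P-values measure only the spread between the 2 libraries of a line, pooled over the 4 lines and moderated across all genes tested. That spread may be technical.

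*DAXX* mRNA went with the labels. It averaged 7.95 ± 0.918 FPKM in KD, 221 ± 88.4 FPKM in WT OE and 79.2 ± 20.7 FPKM in DSM OE cells, against 31.3 ± 8.55 FPKM in control cells (SD, n = 2 libraries each). The log2 fold change of FPKM + 1 over control was -1.83 in KD (SE 0.34, limma adjusted p = 0.0364) and 2.74 in WT OE (SE 0.34, limma adjusted p = 0.0175). Its 1.31 in DSM OE did not pass the test (SE 0.34, limma adjusted p = 0.0661). Leaving out any control, KD or DSM OE library ended the call in KD. In WT OE it ended without either of the controls or without WT OE replicate 2. The summed FPKM of a library was 162318 to 166886. Mapped fragments per library are not given in the sources used here, and the most frequent ratio of values under an FPKM of 0.1 put the depths at 0.918 to 1.17 times that of control replicate 1. The mesenchymal markers *VIM*, *CD44*, *AXL* and *FN1* together reached 198 to 1529 FPKM, the lowest in KD replicate 1. *VIM* alone had 39.1 and 970 FPKM in KD, 1081 and 682 FPKM in WT OE and 1277 and 1328 FPKM in DSM OE, against 788 and 880 FPKM in control libraries. The leukocyte markers *PTPRC*, *CD3E* and *CD14* summed to 5.06 and 4.76 FPKM in KD, 1.86 and 1.83 FPKM in WT OE, and 2.68 and 1.95 FPKM in DSM OE, against 1.53 and 1.24 FPKM in control libraries. *CD3E* was listed at 0 in each library, and nearly all of the sum came from *CD14*. The receptor and epithelial markers *ESR1*, *PGR*, *ERBB2* and *CDH1* summed to 2.65 to 5.42 FPKM, with *ESR1* and *PGR* listed at 0 throughout. The endothelial markers *CDH5* and *VWF* summed to 0 to 0.0373 FPKM. The fibroblast markers *COL1A1*, *COL1A2*, *COL3A1*, *DCN*, *LUM* and *PDGFRB* summed to 4.91 to 7.95 FPKM. Of these, *COL3A1* had 2.01 to 2.54 FPKM in KD and control libraries and 0.00306 to 0.018 FPKM in WT OE and DSM OE libraries. The part of these markers in the results was not tested.

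Translation initiation joins a ribosome to an mRNA and places it at the start codon. The eIF4 proteins bind the mRNA cap and unwind the leader, eIF2 brings the initiator methionine tRNA, eIF3 holds the small ribosomal subunit and eIF5B joins the large one. Cells slow initiation chiefly by phosphorylating eIF2 alpha, which blocks its exchange factor eIF2B, and by letting eIF4E-binding proteins capture the cap-binding protein eIF4E, a step that mTORC1 signalling relieves and that many cancers exploit.

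The 49 genes had mean levels of 1.65 FPKM (*EIF4ENIF1*) to 196 FPKM (*EIF5A*), with a median of 16.9 FPKM, against a median of 5.23 FPKM over all genes tested. Their summed FPKM was 0.890% to 1.05% of each library's sum. The eIF3 genes together gave 453 and 424 FPKM in KD, 439 and 431 FPKM in WT OE and 446 and 439 FPKM in DSM OE, against 384 and 354 FPKM in control libraries. Each of the altered libraries was above both controls. Of the WT OE sums, 34.4 and 57.0 FPKM came from *EIF3C* and *EIF3CL*, against 1.64 and 0.506 FPKM in control libraries. Without this pair, the sum of WT OE replicate 2 would lie below that of control replicate 1. *EIF3CL* passed the filter through WT OE alone, so the WT OE sums are a description only. The eIF2B genes together gave 46.1 to 52.6 FPKM in the altered lines, against 45.7 and 42.9 FPKM in control libraries. The map of all genes by library shows that most genes varied little, and that a few rows were far up or down in single libraries.

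**Figure D1:**
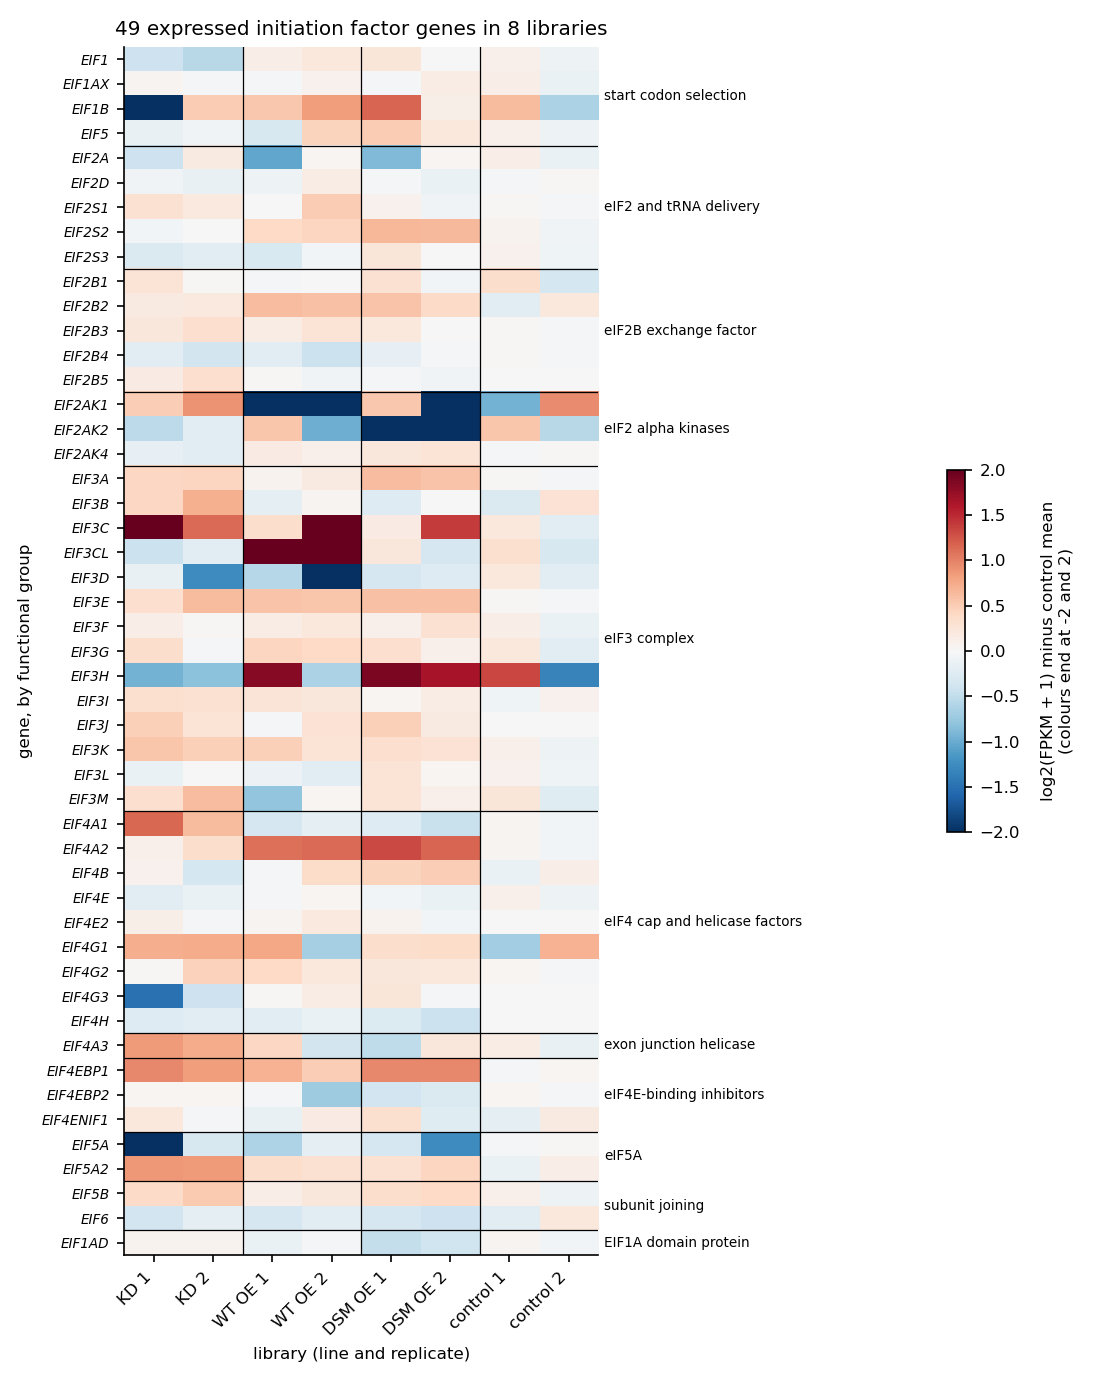
Each row is 1 of the 49 initiation factor genes, grouped by function, and each column 1 of the 8 libraries, with the colour giving log2(FPKM + 1) minus the mean of the 2 control libraries of that gene (red above, blue below, colours ending at -2 and 2). *EIF4EBP1* was red in all altered libraries and *EIF4A2* in all WT OE and DSM OE libraries, while rows such as *EIF2AK1*, *EIF3H* and *EIF1B* changed colour within a line.

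Few initiation factor genes passed the test, and all that did were higher. In KD against control, 4 of the 49 were called higher and 0 lower at a limma adjusted p under 0.05 (8.16% of them), where 7.20% of all genes tested were called. WT OE against control gave 3 higher and 0 lower (6.12%), where 5.11% of all genes were called. Of the 3, *EIF3CL* passed the filter through WT OE alone. DSM OE against control gave 5 higher and 0 lower (10.2%), where 11.0% of all genes were called. These shares were near those of all genes. Called higher were *EIF4EBP1*, *EIF5A2*, *EIF3A* and *EIF4A1* in KD, *EIF3CL*, *EIF4A2* and *EIF4EBP1* in WT OE, and *EIF4A2*, *EIF4EBP1*, *EIF2S2*, *EIF3A* and *EIF3E* in DSM OE. The comparisons share the control libraries.

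By direction, 3.51% of all genes were called higher and 3.69% lower in KD. For WT OE the shares were 2.49% (higher) and 2.62% (lower). For DSM OE they were 5.51% (higher) and 5.50% (lower). At an unadjusted limma p under 0.05, 8 initiation factor genes were higher and 3 lower in KD, where 12.1% of all genes were higher and 11.2% lower. In WT OE 9 were higher and 1 lower, where 12.2% of all genes were higher and 10.4% lower. In DSM OE 10 were higher and 3 lower, where 14.8% were higher and 13.4% lower. The median log2 fold change of the 49 genes was 0.08 for KD, 0.09 for WT OE and 0.12 for DSM OE, against 0.03, 0.02 and 0.02 over all genes tested. Both libraries lay above both control libraries for 19 of the 49 genes in KD (31.4% of all genes), 20 in WT OE (28.9% of all genes) and 15 in DSM OE (31.0% of all genes). They lay below them for 9 genes in each line (26.1%, 25.2% and 27.8% of all genes).

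**Figure D2:**
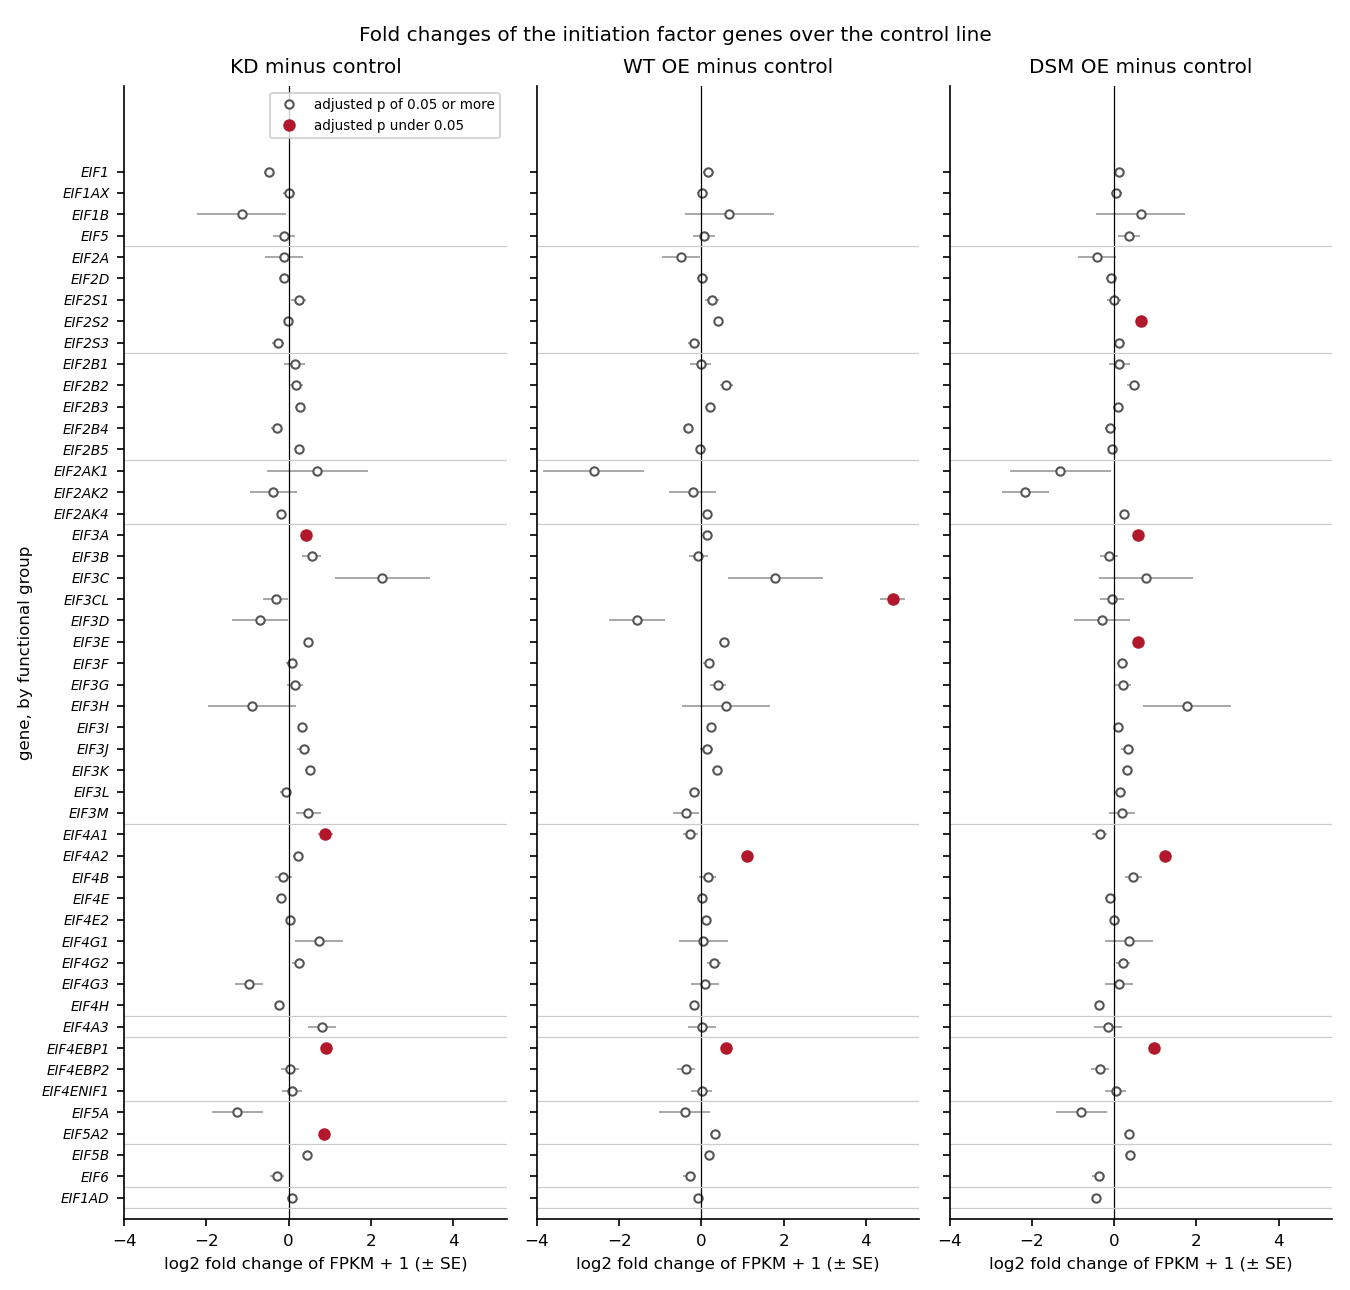
Points give the fitted log2 fold change of FPKM + 1 of each of the 49 genes in KD, WT OE and DSM OE cells over control cells, with the standard error of the fit as bars, and filled red points passed the threshold (limma adjusted p under 0.05, 2 libraries a line). All red points lie right of 0, with *EIF3CL* at 4.65 in WT OE as the farthest, and the longest bars belong to genes whose libraries disagree within a line. *EIF3CL* passed the filter through WT OE alone, so its red point is no independent test.

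Among the cap and helicase factors, the paralogs of the eIF4A helicase differed between the lines. eIF4A is the helicase of the cap-binding complex eIF4F, and *EIF4A1* (ENSG00000161960, GRCh38.p14 chromosome 17 from 7572825 to 7579006) and *EIF4A2* (ENSG00000156976, chromosome 3 from 186783577 to 186789897) encode closely related forms of it. *EIF4A1* stood at 73.6 and 51.2 FPKM in KD, 25.5 and 28.4 FPKM in WT OE and 27.2 and 23.7 FPKM in DSM OE, against 34.0 and 31.3 FPKM in control libraries. Both KD libraries were above all others, and all WT OE and DSM OE libraries below both controls. *EIF4A1* rose in KD by 0.89 on the log2 scale (SE 0.19, limma adjusted p = 0.0469), a call that was lost without any library other than KD replicate 2 (0.63 to 1.15 with single libraries omitted). Its log2 fold changes of -0.27 in WT OE (limma adjusted p = 0.45) and -0.35 in DSM OE (limma adjusted p = 0.279) did not pass.

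*EIF4A2* stood at 17.1 and 20.4 FPKM in KD, 34.9 and 35.8 FPKM in WT OE and 41.0 and 36.6 FPKM in DSM OE, against 16.4 and 15.2 FPKM in control libraries. All libraries of both overexpression lines were above those of KD and control. It rose in DSM OE by 1.24 on the log2 scale (SE 0.12, limma adjusted p = 0.00577), a call kept with any library left out (1.16 to 1.32). In WT OE *EIF4A2* rose by 1.11 (SE 0.12, limma adjusted p = 0.011), which was lost without either control or either WT OE library (1.06 to 1.17). The value in KD, 0.23, did not pass (limma adjusted p = 0.32).

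The ratio of *EIF4A2* to *EIF4A1*, both in FPKM and so per length, was 0.232 and 0.399 in KD libraries, 1.37 and 1.26 in WT OE libraries and 1.51 and 1.55 in DSM OE libraries, against 0.483 and 0.484 in control libraries. *EIF4A2* was therefore the more abundant form in both overexpression lines and the less abundant form in KD and control. Their summed level was 90.7 and 71.6 FPKM in KD, 60.4 and 64.2 FPKM in WT OE and 68.2 and 60.3 FPKM in DSM OE, against 50.5 and 46.5 FPKM in control libraries. Each altered library was above both controls. Both genes host small nucleolar RNAs in their introns, and *EIF4A1* lies within the annotated read-through gene *SENP3-EIF4A1*, so reads of those transcripts may count towards them.

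The promoters of this pair are shown because *EIF4A1* was called in KD and *EIF4A2* in the overexpression lines. They are the 250 bases before the RefSeq start on GRCh38.p14, EIF4A1 at chr17:7572575-7572824 (plus strand) and EIF4A2 at chr3:186783327-186783576 (plus strand), with capitals marking, on either strand, the ETS-type motif CGGAAG, the CCAAT box and the TATA box TATAAA:
EIF4A1: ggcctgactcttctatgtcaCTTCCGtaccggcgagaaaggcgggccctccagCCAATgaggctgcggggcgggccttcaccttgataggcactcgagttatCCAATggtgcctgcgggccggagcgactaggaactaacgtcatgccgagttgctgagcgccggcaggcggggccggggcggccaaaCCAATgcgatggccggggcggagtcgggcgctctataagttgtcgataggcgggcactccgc
EIF4A2: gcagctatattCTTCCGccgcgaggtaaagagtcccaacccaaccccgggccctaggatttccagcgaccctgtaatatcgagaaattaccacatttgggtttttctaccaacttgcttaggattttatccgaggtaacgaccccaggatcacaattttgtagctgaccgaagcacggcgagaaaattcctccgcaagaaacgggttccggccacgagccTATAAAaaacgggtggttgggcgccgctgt

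Both windows held 1 CGGAAG, EIF4A1 held 3 CCAAT and EIF4A2 held 1 TATAAA. Of the 40 initiation factor genes with a promoter entry, 15 (37.5%) held CGGAAG, against 16.5% of all 35116 promoters of that length. CCAAT was in 17 of the 40 (42.5%), against 32.0% of all promoters, and the E-box CACGTG in 11 (27.5%), against 6.35%. TATAAA was in *EIF4A2* alone (2.5%), against 10.7% of all promoters. These are matches of letters on either strand and no measure of binding. Initiation factors were counted per gene and all promoters per entry, without regard to expression, so the 2 shares are not like for like.

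**Figure D3:**
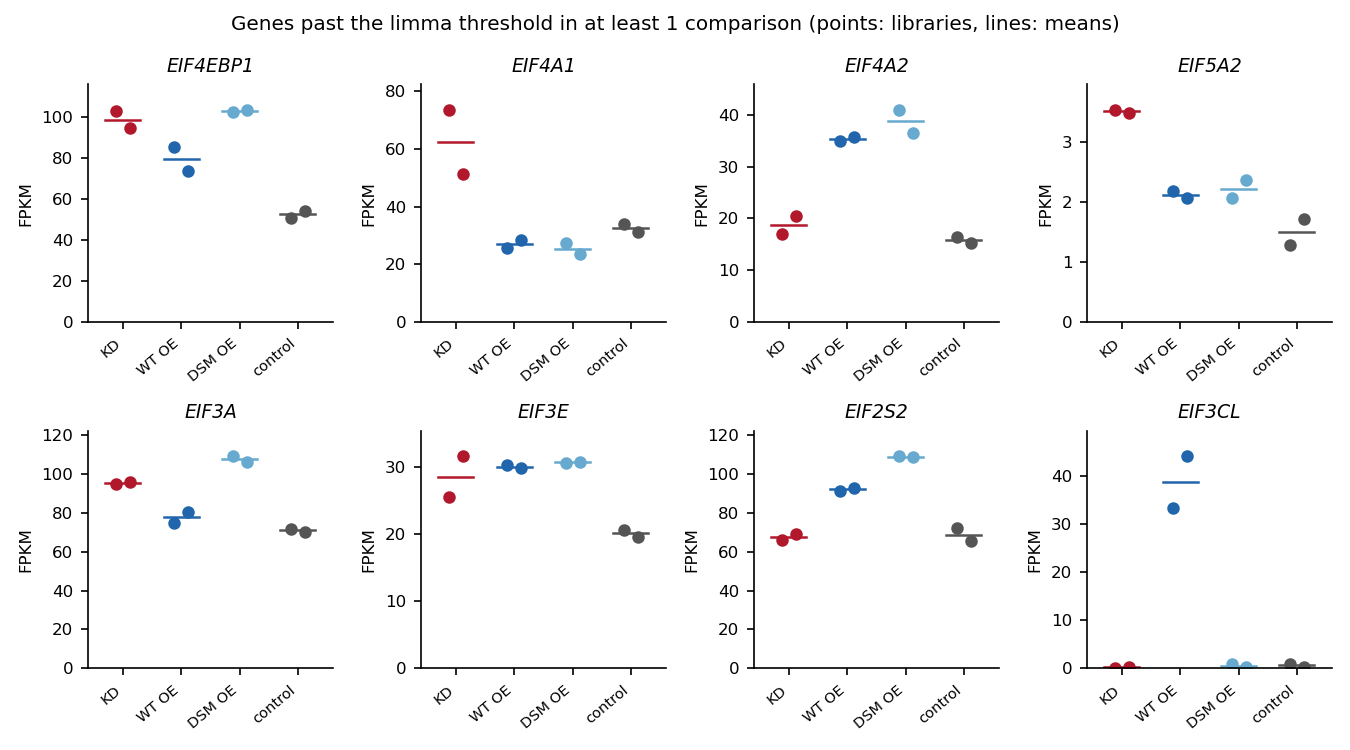
FPKM of the 8 initiation factor genes that passed the threshold in at least 1 comparison, with a point for each library (replicate 1 left, replicate 2 right) and a line for the mean of each line of cells. *EIF4EBP1* lies at 73.7 to 103 FPKM in all altered libraries and at 50.7 and 54.0 FPKM in control, *EIF4A1* is high in KD only, *EIF4A2* in both overexpression lines, and *EIF3CL* in WT OE only. *EIF3CL* passed the filter through WT OE alone, so its difference is a description only.

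Other cap and helicase factors did not pass the test in any comparison. *EIF4H*, a partner that stimulates the eIF4A helicase and the most abundant gene of this group, had 142 and 145 FPKM in KD, 147 and 154 FPKM in WT OE and 140 and 125 FPKM in DSM OE, against 168 and 171 FPKM in control libraries. All altered libraries lay below both controls, with log2 fold changes of -0.24, -0.17 and -0.36 (limma adjusted p = 0.174, 0.315 and 0.0573). The cap-binding protein gene *EIF4E* had 2.45 to 3.14 FPKM in the altered libraries, against 3.35 and 2.74 FPKM in control libraries. *EIF4E2*, for a related cap-binding protein that represses translation, had 7.57 to 9.19 FPKM, against 7.95 and 7.88 FPKM, and *EIF4B*, another partner of the helicase, 37.9 to 69.0 FPKM, against 43.9 and 53.5 FPKM. *EIF4E* was below both controls in KD, *EIF4E2* above both in WT OE and *EIF4B* above both in DSM OE, where its log2 fold change of 0.47 did not pass (limma adjusted p = 0.204). The other lines overlapped control. The scaffold gene *EIF4G1* had 88.0 and 88.8 FPKM in KD, 90.6 and 33.0 FPKM in WT OE and 67.5 and 68.4 FPKM in DSM OE, against 32.4 and 85.9 FPKM in control libraries. Replicates of WT OE and of control spanned nearly the whole range. *EIF4G2*, for a related protein that does not bind eIF4E, had 47.7 to 65.0 FPKM in the altered libraries, against 48.2 and 45.4 FPKM in control libraries. Both overexpression lines were above both controls, and KD overlapped them. The scaffold paralog *EIF4G3* had 2.10 and 5.56 FPKM in KD, 7.90 and 8.69 FPKM in WT OE and 9.36 and 7.65 FPKM in DSM OE, against 7.80 and 7.69 FPKM in control libraries. Both KD libraries of *EIF4G3* were below all others, with a log2 fold change of -0.96 that did not pass (SE 0.34, limma adjusted p = 0.166). Without KD replicate 2 it passed, at -1.50 (limma adjusted p = 0.0231).

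*EIF4EBP1* was the only initiation factor gene called in all 3 comparisons with control. It encodes the eIF4E-binding protein 4E-BP1, which holds eIF4E away from the scaffold until mTORC1 phosphorylates it. The gene had 103 and 94.3 FPKM in KD, 85.2 and 73.7 FPKM in WT OE and 102 and 103 FPKM in DSM OE, against 50.7 and 54.0 FPKM in control libraries. Altered and control libraries did not overlap. On the log2 scale it rose by 0.90 in KD (SE 0.10, limma adjusted p = 0.00937). The rise was 0.59 in WT OE (SE 0.10, limma adjusted p = 0.0404) and 0.96 in DSM OE (SE 0.10, limma adjusted p = 0.00758). The 3 values share the control libraries. The *EIF4EBP1* call was kept in DSM OE with any library left out (0.92 to 1.01). It was lost in KD without control replicate 1 or KD replicate 1 (0.84 to 0.96), and in WT OE with each library left out (0.49 to 0.69).

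The ratio of *EIF4EBP1* to *EIF4E* in FPKM was 41.9 and 35.0 in KD libraries, 28.7 and 23.5 in WT OE libraries and 35.4 and 38.6 in DSM OE libraries, against 15.1 and 19.7 in control libraries. All altered libraries were above both controls. The *EIF4E* pseudogene *EIF4EP2* was listed at 8.05 to 10.7 FPKM over the 8 libraries, above *EIF4E* in each. Reads may be shared between them, which was not tested, so the size of the ratio is uncertain. The related inhibitor *EIF4EBP2* had 19.4 and 19.3 FPKM in KD, 18.2 and 11.1 FPKM in WT OE and 14.2 and 15.2 FPKM in DSM OE, against 19.4 and 18.3 FPKM in control libraries. *EIF4ENIF1*, the eIF4E transporter gene, had 1.17 to 2.2 FPKM in the altered libraries, against 1.28 and 1.90 FPKM in control libraries. Neither passed the test in any comparison. Protein and phosphorylation were not measured in these libraries.

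**Figure D4:**
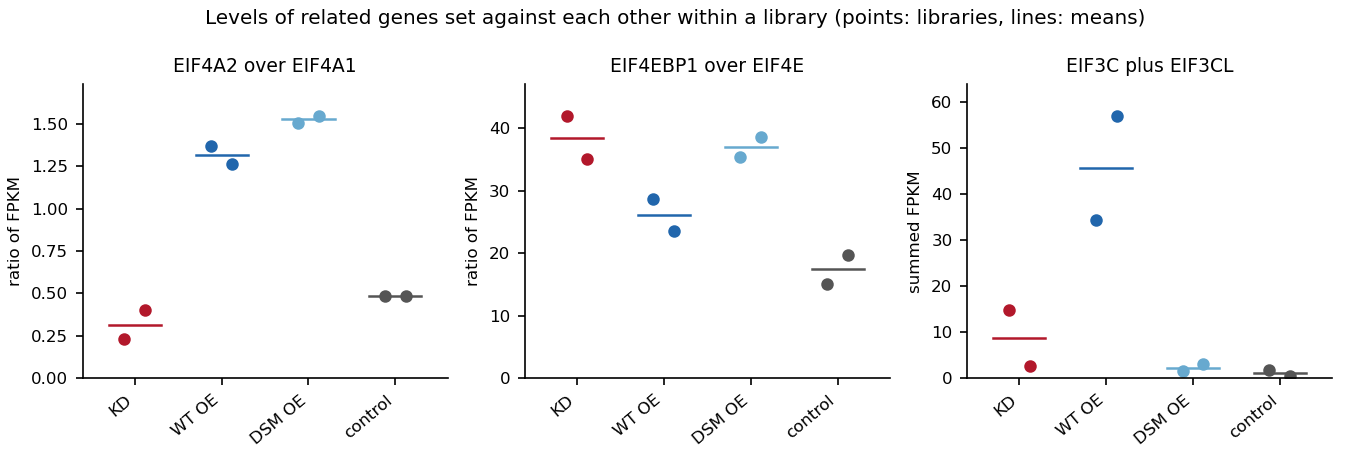
Points give, for each library, the ratio of *EIF4A2* to *EIF4A1*, the ratio of *EIF4EBP1* to *EIF4E*, and the summed level of *EIF3C* and *EIF3CL*, all from FPKM, with lines for the mean of each line of cells (2 libraries each). The first ratio is above 1 in WT OE and DSM OE libraries and under 0.5 in KD and control libraries, the second is highest in KD and DSM OE, and the sum is 34.4 and 57.0 FPKM in WT OE against 0.506 to 14.7 FPKM elsewhere. The pseudogene *EIF4EP2* may share reads with *EIF4E*, which was not tested.

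Of the 14 eIF3 genes, *EIF3A* passed in KD and DSM OE, and *EIF3E* in DSM OE. *EIF3CL* was past the threshold in WT OE, but it passed the filter through WT OE alone, so that is no independent test. *EIF3A* (ENSG00000107581, GRCh38.p14 chromosome 10 from 119033670 to 119080817) encodes the largest subunit and scaffold of the complex. It had 94.7 and 95.7 FPKM in KD, 74.8 and 80.6 FPKM in WT OE and 109 and 106 FPKM in DSM OE, against 71.8 and 70.0 FPKM in control libraries. Replicates of each line stood close together. Its rise on the log2 scale was 0.59 in DSM OE (SE 0.08, limma adjusted p = 0.013) and 0.42 in KD (SE 0.08, limma adjusted p = 0.0376). The value for WT OE, 0.13, did not pass (limma adjusted p = 0.403). The DSM OE call was lost without either control or either DSM OE library (0.57 to 0.61), and the KD call with each library left out (0.40 to 0.44).

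*EIF3E*, an eIF3 subunit also known as INT6 from a mouse mammary tumour virus integration site, had 25.6 and 31.6 FPKM in KD, 30.2 and 29.8 FPKM in WT OE and 30.6 and 30.7 FPKM in DSM OE, against 20.5 and 19.6 FPKM in control libraries. All altered libraries were above both controls. *EIF3E* rose in DSM OE by 0.59 (SE 0.12, limma adjusted p = 0.0344), which was lost when any of the control, WT OE or DSM OE libraries was left out (0.56 to 0.62). Its 0.48 in KD (limma adjusted p = 0.0713) and 0.56 in WT OE (limma adjusted p = 0.0575) did not pass.

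*EIF3I*, the most abundant eIF3 gene by mean and coding for a WD-repeat subunit, had 112 and 110 FPKM in KD, 107 and 105 FPKM in WT OE and 91.7 and 98.7 FPKM in DSM OE, against 84.1 and 94.5 FPKM in control libraries. Its log2 fold changes of 0.31, 0.25 and 0.09 did not pass (limma adjusted p = 0.116, 0.196 and 0.569). *EIF3K*, a small subunit, had 18.0 to 22.2 FPKM in the altered libraries and 15.9 and 13.7 FPKM in control libraries. A log2 fold change of 0.52 in KD did not pass (limma adjusted p = 0.0596). The other 9 eIF3 genes, among them *EIF3C*, *EIF3D* and *EIF3H*, did not pass the test in any comparison. *EIF3B*, which codes for an RNA-binding core subunit, had 20.0 to 40.3 FPKM in the altered libraries, against 19.7 and 29.7 FPKM in control libraries. *EIF3L* had 28.5 to 40.7 FPKM, against 35.8 and 31.3 FPKM, and *EIF3G*, for a subunit that takes part in scanning, 30.4 to 41.9 FPKM, against 36.1 and 26.5 FPKM. Of these, *EIF3B* was above both controls in both KD libraries, *EIF3G* was above them and *EIF3L* below them in both WT OE libraries, and the other lines overlapped control. *EIF3F* had 12.8 to 15.6 FPKM in the altered libraries, against 13.9 and 11.3 FPKM in control libraries. *EIF3J*, for a loosely bound subunit, had 11.9 to 17.2 FPKM, against 11.99 and 12.1 FPKM, and *EIF3M* 3.89 to 11.98 FPKM, against 8.99 and 6.16 FPKM. Both KD and both DSM OE libraries of *EIF3J*, both KD libraries of *EIF3M* and both WT OE libraries of *EIF3F* were above both controls, and the other lines overlapped control. The smallest adjusted p of these 6 genes against control was 0.216 by limma (*EIF3B* in KD).

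The largest fold change belonged to *EIF3CL*, from a pair of neighbouring genes that encode the eIF3c subunit. *EIF3C* (ENSG00000184110) and *EIF3CL* (ENSG00000205609) lie on chromosome 16 of GRCh38.p14, from 28688558 to 28735730 and from 28379581 to 28426418. Their mRNAs in GENCODE, of 2910 and 2913 bases, had 0 substitutions and 3 gap columns in alignment (99.9% identical). The only stretch that tells these transcripts apart is printed here, from exon 9 of 21 on GRCh37, with EIF3C at chr16:28734549-28734608 (plus strand), EIF3CL at chr16:28403337-28403399 (minus strand), and capitals marking the codon that *EIF3CL* has in excess within a run of GAG repeats:
EIF3C: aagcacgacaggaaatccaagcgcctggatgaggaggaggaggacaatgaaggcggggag
EIF3CL: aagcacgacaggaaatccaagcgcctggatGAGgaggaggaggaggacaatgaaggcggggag

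A fragment outside that stretch matches both transcripts equally, so how their levels were divided rests on the authors' assembly, and each gene's own value is uncertain. *EIF3CL* had 0.160 and 0.362 FPKM in KD, 33.5 and 44.2 FPKM in WT OE and 0.843 and 0.241 FPKM in DSM OE, against 0.958 and 0.256 FPKM in control libraries. Only the WT OE libraries were above an FPKM of 1, so *EIF3CL* passed the filter through WT OE alone and had to differ there. Its log2 fold change of 4.65 in WT OE (SE 0.30) is therefore given as a description, with no test.

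*EIF3C* had 14.6 and 2.17 FPKM in KD, 0.853 and 12.8 FPKM in WT OE and 0.621 and 2.82 FPKM in DSM OE, against 0.678 and 0.251 FPKM in control libraries. In KD and in WT OE the replicates lay far apart, and no comparison passed (log2 fold changes 2.28 for KD, 1.80 for WT OE and 0.78 for DSM OE, SE 1.15 each, limma adjusted p = 0.303, 0.414 and 0.701). Taken as 1 gene, *EIF3C* and *EIF3CL* summed to 14.7 and 2.53 FPKM in KD, 34.4 and 57.0 FPKM in WT OE and 1.46 and 3.07 FPKM in DSM OE, against 1.64 and 0.506 FPKM in control libraries. The sum was higher in WT OE than in control by 4.51 on the log2 scale. In WT OE it was mostly *EIF3CL* (33.5 and 44.2 FPKM), so this difference is a description only. The sum's 1.90 in KD (limma adjusted p = 0.199) and 0.67 in DSM OE (limma adjusted p = 0.604) did not pass. In both control libraries this sum was below the level of each other eIF3 gene.

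Delivery of the initiator tRNA falls to the heterotrimer eIF2. *EIF2S2* (ENSG00000125977, GRCh38.p14 chromosome 20 from 34088309 to 34112243), which codes for its beta subunit, had 66.2 and 69.3 FPKM in KD, 91.4 and 92.8 FPKM in WT OE and 109 and 109 FPKM in DSM OE, against 72.1 and 65.6 FPKM in control libraries. Libraries of both overexpression lines were above those of KD and control. *EIF2S2* rose in DSM OE by 0.66 (SE 0.09, limma adjusted p = 0.0119). That call was lost without control replicate 2 or DSM OE replicate 2 (0.59 to 0.72). Its 0.42 in WT OE did not pass (limma adjusted p = 0.0537). The alpha subunit gene *EIF2S1* had 16.2 to 24.9 FPKM in the altered libraries, against 17.4 and 16.9 FPKM in control libraries. The gamma subunit gene *EIF2S3* had 20.6 to 30.7 FPKM, against 27.2 and 24.2 FPKM. Neither passed the test, nor did *EIF2A* and *EIF2D*, which code for alternative carriers of initiator tRNA. *EIF2D* had 3.23 to 4.20 FPKM in the altered libraries, against 3.602 and 3.74 FPKM in control libraries, and was below both controls in KD.

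None of the 5 eIF2B genes passed the test in any comparison. *EIF2B2*, a regulatory subunit gene and the most abundant of them, had 11.4 and 11.5 FPKM in KD, 15.8 and 15.5 FPKM in WT OE and 15.3 and 13.3 FPKM in DSM OE, against 8.44 and 11.7 FPKM in control libraries. Its log2 fold changes were 0.18, 0.60 and 0.48 (limma adjusted p = 0.557, 0.098 and 0.122). *EIF2B1*, for the alpha subunit, had 10.1 to 13.3 FPKM in the altered libraries, against 13.7 and 8.04 FPKM in control libraries. *EIF2B3* had 8.17 to 10.7 FPKM, against 8.45 and 8.10 FPKM, and *EIF2B4* 3.57 to 5.08 FPKM, against 5.29 and 5.04 FPKM. *EIF2B5*, which codes for the catalytic subunit, had 9.37 to 12.8 FPKM in the altered libraries, against 9.83 and 10.0 FPKM in control libraries. *EIF2B3* was above both controls and *EIF2B4* below both in the KD and WT OE libraries, and *EIF2B5* was above both in KD and below both in DSM OE. *EIF2B2* was above both controls in both overexpression lines. The other lines, and all lines for *EIF2B1*, overlapped control.

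Of the eIF2 alpha kinase genes, *EIF2AK1* and *EIF2AK2* varied widely between replicates. *EIF2AK1*, the heme-regulated kinase, had 18.1 and 24.3 FPKM in KD, 0.920 and 1.54 FPKM in WT OE and 18.6 and 0.515 FPKM in DSM OE, against 6.02 and 25.1 FPKM in control libraries. Both WT OE libraries were below both controls, but DSM OE and control replicates lay on either side of each other. The log2 fold change of -2.62 in WT OE did not pass (SE 1.23, limma adjusted p = 0.28). *EIF2AK2*, the interferon-induced kinase PKR that binds double-stranded RNA, had 2.69 and 3.58 FPKM in KD, 6.79 and 1.70 FPKM in WT OE and 0.200 and 0.187 FPKM in DSM OE, against 6.78 and 2.64 FPKM in control libraries. Both DSM OE libraries were below all others. The log2 fold change of -2.16 did not pass (SE 0.56, limma adjusted p = 0.0658), although it did with a pseudocount of 0.1 (-3.89, limma adjusted p = 0.029) or without either WT OE library (limma adjusted p = 0.0413). *EIF2AK4*, the amino acid sensor GCN2, had 4.88 and 4.66 FPKM in KD, 6.36 and 6.07 FPKM in WT OE and 6.69 and 6.95 FPKM in DSM OE, against 5.47 and 5.67 FPKM in control libraries. KD was below both controls and the overexpression lines above both, with log2 fold changes of -0.19, 0.14 and 0.25 that did not pass (limma adjusted p = 0.305, 0.456 and 0.152).

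Start codon selection depends on eIF1, eIF1A and eIF5. *EIF1*, the most abundant gene of this group, had 42.0 and 38.0 FPKM in KD, 61.8 and 65.1 FPKM in WT OE and 66.6 and 56.2 FPKM in DSM OE, against 60.3 and 52.5 FPKM in control libraries. Both KD libraries were below all others, with a log2 fold change of -0.48 that did not pass (SE 0.13, limma adjusted p = 0.0837). Its paralog *EIF1B* had 0.753 and 16.3 FPKM in KD, 16.6 and 20.7 FPKM in WT OE and 26.3 and 12.2 FPKM in DSM OE, against 17.8 and 6.89 FPKM in control libraries. All lines overlapped control, and the KD replicates lay farthest apart. *EIF1AX* and *EIF5* had 13.0 to 15.1 FPKM and 16.0 to 29.4 FPKM in the altered libraries, against 12.1 to 14.9 FPKM and 18.8 to 22.0 FPKM in control libraries. *EIF1AD*, which codes for a protein with an eIF1A-like domain, had 5.85 and 5.91 FPKM in KD, 4.98 and 5.39 FPKM in WT OE and 3.71 and 3.98 FPKM in DSM OE, against 5.79 and 5.32 FPKM in control libraries. Its -0.43 in DSM OE did not pass (limma adjusted p = 0.0511).

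eIF5A carries the modified residue hypusine and helps ribosomes past difficult peptide bonds, despite its name as an initiation factor. *EIF5A*, the main form and the most abundant gene of all 49, had 60.2 and 218 FPKM in KD, 179 and 237 FPKM in WT OE and 216 and 114 FPKM in DSM OE, against 269 and 277 FPKM in control libraries. All altered libraries lay below both controls, but the KD replicates alone spanned most of the range, and no comparison passed. The log2 fold changes were -1.25 for KD, -0.41 for WT OE and -0.80 for DSM OE (SE 0.61 each, limma adjusted p = 0.294, 0.753 and 0.451). Its paralog *EIF5A2* (ENSG00000163577, GRCh38.p14 chromosome 3 from 170888418 to 170908637) had 3.53 and 3.49 FPKM in KD, 2.18 and 2.06 FPKM in WT OE and 2.06 and 2.37 FPKM in DSM OE, against 1.28 and 1.72 FPKM in control libraries. *EIF5A2* rose in KD by 0.86 on the log2 scale (SE 0.13, limma adjusted p = 0.0194), lost without control replicate 1 or either KD library (0.73 to 0.98). The values of 0.33 in WT OE and 0.37 in DSM OE did not pass (limma adjusted p = 0.21 and 0.127).

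The last steps belong to *EIF5B*, the GTPase of subunit joining, and *EIF6*, which keeps the large ribosomal subunit apart until it is mature. *EIF6* had 79.7 and 91.5 FPKM in KD, 82.2 and 89.1 FPKM in WT OE and 82.7 and 78.0 FPKM in DSM OE, against 89.7 and 122 FPKM in control libraries. KD overlapped control, and the libraries of both overexpression lines were below both controls. *EIF5B* had 22.5 and 24.8 FPKM in KD, 18.8 and 20.1 FPKM in WT OE and 21.9 and 22.6 FPKM in DSM OE, against 18.2 and 15.8 FPKM in control libraries. Its log2 fold change of 0.46 in KD did not pass (limma adjusted p = 0.0672). *EIF4A3*, named for its likeness to eIF4A but a helicase of the exon junction complex, had 29.0 and 26.8 FPKM in KD, 21.0 and 11.9 FPKM in WT OE and 10.6 and 18.5 FPKM in DSM OE, against 17.4 and 13.9 FPKM in control libraries. Both KD libraries of *EIF4A3* were above all others, and the overexpression lines overlapped control. Its 0.80 in KD did not pass (limma adjusted p = 0.228).

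Between the overexpression lines, 1 of the 49 genes was called higher in WT OE than in DSM OE and 0 lower (2.04%), where 1.60% of all genes tested were called (0.946% higher, 0.650% lower). At an unadjusted limma p under 0.05, 3 were higher and 4 lower, where 8.78% of all genes were higher and 7.84% lower. It was *EIF3CL*, with a log2 difference of 4.71 (SE 0.30) that is a description only, since the gene passed the filter through WT OE alone. The sum of *EIF3C* and *EIF3CL* was higher by 3.84 and did not pass (limma adjusted p = 0.0766). In WT OE that sum was mostly *EIF3CL*, so it is no independent test. The next smallest adjusted p belonged to *EIF3A*, lower in WT OE than in DSM OE by 0.46 on the log2 scale without passing (SE 0.08, limma adjusted p = 0.0613). For *EIF4A2* the difference was -0.13 (SE 0.12, limma adjusted p = 0.641), for *EIF4EBP1* -0.37 (SE 0.10, limma adjusted p = 0.163) and for *EIF2S2* -0.24 (SE 0.09, limma adjusted p = 0.247).

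Replicates of 1 line differed by more than 1 on the log2(FPKM + 1) scale in 10 of the 49 genes (20.4%), against 15.0% of all genes tested. They were *EIF1B*, *EIF2A*, *EIF2AK1*, *EIF2AK2*, *EIF3C*, *EIF3D*, *EIF3H*, *EIF4G1*, *EIF4G3* and *EIF5A*, and none of them was called in any comparison. *EIF3D*, a subunit that can itself bind some mRNA caps, had 39.1 and 17.6 FPKM in KD, 29.0 and 6.56 FPKM in WT OE and 34.4 and 36.3 FPKM in DSM OE, against 50.5 and 37.7 FPKM in control libraries. *EIF3H* had 1.87 and 2.15 FPKM in KD, 18.7 and 2.59 FPKM in WT OE and 19.5 and 16.5 FPKM in DSM OE, against 13.0 and 1.21 FPKM in control libraries. The values of *EIF3H* fell into a low set of 1.21 to 2.59 FPKM and a high set of 13.0 to 19.5 FPKM, and both WT OE and control had a library in each. *EIF2A* had 7.0 and 11.1 FPKM in KD, 4.19 and 9.88 FPKM in WT OE and 4.79 and 9.94 FPKM in DSM OE, against 10.7 and 8.67 FPKM in control libraries. What set the libraries of a line apart in these genes was not tested.

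**Figure D5:**
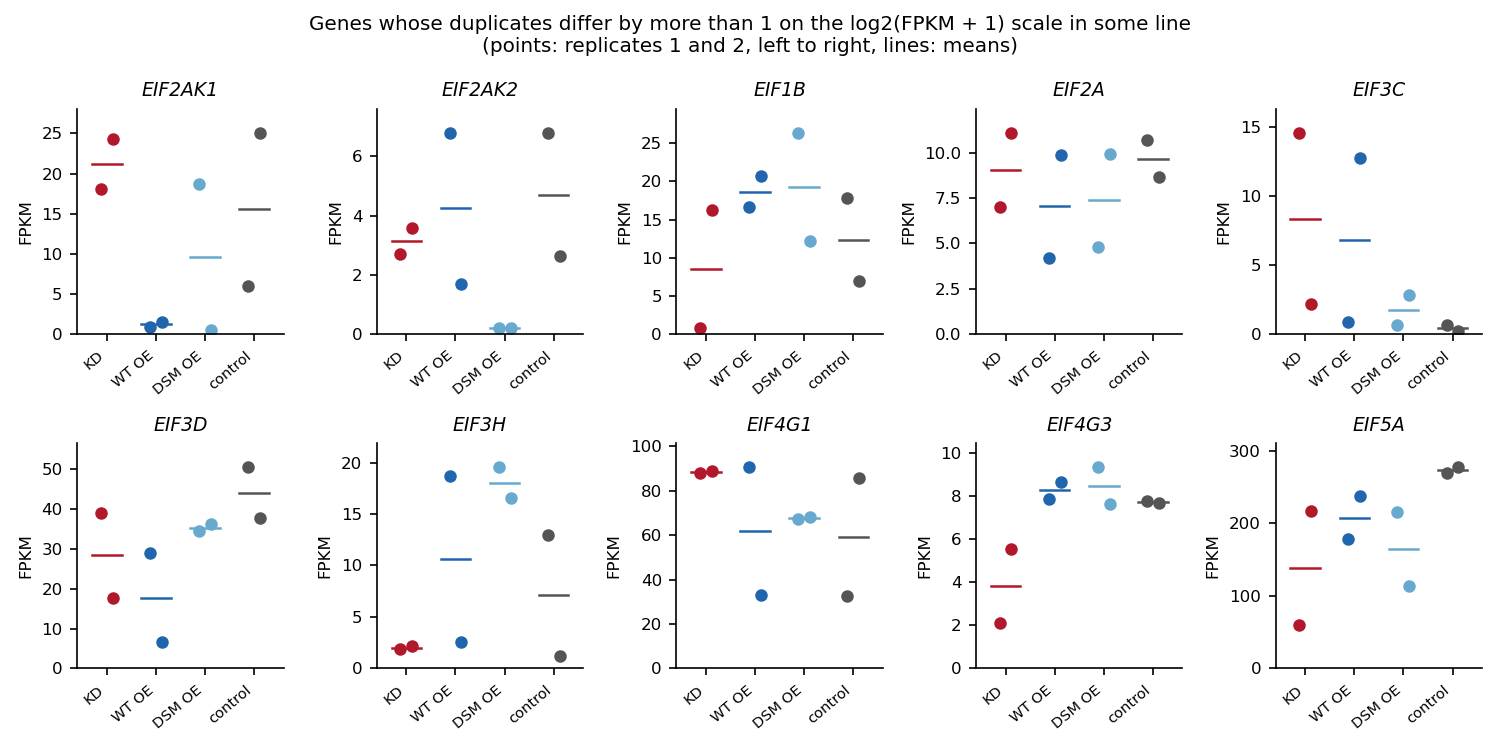
FPKM of the 10 initiation factor genes in which the replicates of some line differ by more than 1 on the log2(FPKM + 1) scale, with points for replicate 1 (left) and replicate 2 (right) and lines for means. *EIF2AK1* spans 0.515 to 18.6 FPKM within DSM OE, *EIF1B* 0.753 to 16.3 FPKM within KD and *EIF4G1* 32.4 to 85.9 FPKM within control.

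Beside the initiation factors, 42 other translation genes were listed (elongation and termination factors, mRNA binding proteins and initiation helpers, and regulators by mTOR, MNK or eIF2 phosphorylation), of which 41 were tested. In KD 0 were called higher and 4 lower, in WT OE 1 higher and 2 lower, in DSM OE 3 higher and 3 lower, and 1 higher and 0 lower in WT OE than in DSM OE. Of all genes tested, 3.51% were higher and 3.69% lower in KD, while the shares were 2.49% and 2.62% for WT OE, 5.51% and 5.50% for DSM OE, and 0.946% and 0.650% between the overexpression lines. The 4 genes lower in KD were 9.76% of the 41. For WT OE the shares of the 41 were 2.44% (higher) and 4.88% (lower), and for DSM OE 7.32% each way. At an unadjusted limma p under 0.05, 6 were higher and 5 lower in KD, 5 and 7 in WT OE, 5 and 6 in DSM OE, and 2 and 5 between the overexpression lines. Of all genes tested, 12.1% were higher and 11.2% lower at that threshold in KD, and 12.2% and 10.4% in WT OE. For DSM OE these shares were 14.8% and 13.4%, and between the overexpression lines 8.78% and 7.84%. Over the list, the median log2 fold change was 0.05 for KD, -0.06 for WT OE and 0.04 for DSM OE. *EEF1A2*, a tissue-restricted form of the elongation factor that brings aminoacyl tRNA, had 0.873 and 0.853 FPKM in KD, 0.973 and 0.563 FPKM in WT OE and 1.98 and 1.83 FPKM in DSM OE, against 9.31 and 12 FPKM in control libraries. It fell by 2.63 in KD (SE 0.17, limma adjusted p = 0.00109), by 2.72 in WT OE (SE 0.17, limma adjusted p = 0.00313) and by 1.99 in DSM OE (SE 0.17, limma adjusted p = 0.00389), with no overlap with control. The 3 calls of *EEF1A2* were kept with any library left out.

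The translocation factor gene *EEF2* had 193 and 228 FPKM in KD, 229 and 207 FPKM in WT OE and 345 and 318 FPKM in DSM OE, against 369 and 353 FPKM in control libraries. It fell by 0.78 in KD (SE 0.11, limma adjusted p = 0.0188) and by 0.73 in WT OE (SE 0.11, limma adjusted p = 0.0297). Leaving out a control library or KD replicate 1 ended the KD call of *EEF2* (-0.90 to -0.66), and leaving out any control, WT OE or DSM OE library ended the WT OE call (-0.80 to -0.65). Its -0.12 in DSM OE did not pass (limma adjusted p = 0.536). *IMPACT*, an inhibitor of GCN2, had 0.164 and 0.138 FPKM in KD, 2.13 and 3.0 FPKM in WT OE and 5.11 and 4.84 FPKM in DSM OE, against 2.14 and 2.22 FPKM in control libraries. It fell in KD by 1.47 (SE 0.14, limma adjusted p = 0.00493) and rose in DSM OE by 0.91 (SE 0.14, limma adjusted p = 0.0183). The KD call was kept with any library left out, and the DSM OE call was lost without either control or either DSM OE library (0.88 to 0.94). The nuclear cap-binding gene *NCBP1* fell in KD by 1.65 (SE 0.33, limma adjusted p = 0.0429), with 1.65 and 4.58 FPKM in KD against 11.2 and 10.9 FPKM in control libraries. It was also below both controls in WT OE (7.72 and 8.05 FPKM) and in DSM OE (7.69 and 6.57 FPKM). Its -0.44 in WT OE and -0.57 in DSM OE did not pass (limma adjusted p = 0.491 and 0.322). The *NCBP1* call was lost without any library other than a KD library (-2.18 to -1.11).

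In DSM OE, *MLST8*, a subunit of the mTOR complexes, had 3.91 and 3.13 FPKM, against 8.52 and 9.63 FPKM in control libraries. It fell by 1.16 (SE 0.15, limma adjusted p = 0.0123), a call lost without either control or DSM OE replicate 2 (-1.28 to -1.03). In WT OE, with 5.63 and 4.37 FPKM, its -0.75 did not pass (limma adjusted p = 0.0529), nor did its -0.05 in KD (limma adjusted p = 0.877). *PPP1R15A*, the stress-induced subunit that directs eIF2 alpha dephosphorylation, had 47.2 and 45.3 FPKM in DSM OE, against 31.6 and 31.8 FPKM in control libraries. It rose by 0.53 (SE 0.09, limma adjusted p = 0.0229), a call lost without any control, KD or DSM OE library (0.50 to 0.56). The termination factor gene *GSPT2* was higher in WT OE than in control by 0.95 (SE 0.10, limma adjusted p = 0.0116) and higher than in DSM OE by 0.74 (SE 0.10, limma adjusted p = 0.0407). Its levels were 2.86 and 2.97 FPKM in WT OE, against 1.40 and 1.3 FPKM in DSM OE and 0.959 and 1.09 FPKM in control libraries. In KD, with 1.93 and 1.75 FPKM, its 0.49 over control did not pass (limma adjusted p = 0.0511), nor did its 0.22 in DSM OE (limma adjusted p = 0.24). The *GSPT2* call over control was lost without either control or either WT OE library (0.91 to 0.999), and that over DSM OE without any one library (0.70 to 0.77).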

How the data were processed

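RNA of 8 libraries (2 each of KD, WT OE, DSM OE and control) was grouped by the sample labels. Both DSM OE titles hold the letters WT, and the genotype label was followed. The authors computed the FPKM values, which were taken as deposited. By the study's methods, reads were aligned to GRCh38 with HISAT2, assembled with StringTie and summarised with Ballgown, while the notes of the submitters list both GRCh38 and hg19. How transcripts became 1 value per gene, and whether strand was used, is not given in the sources used. The methods name 1 nominal read number for all samples, but mapped fragments per library are not given in the sources used here, so no counting interval can be given. FPKM of a gene depends on all others, and genes that share sequence share reads. Of 49 initiation factor genes, 30 overlap another annotated gene.

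Ensembl identifiers were matched to symbols for 35836 of 36991 genes, and 10414 of the 10465 genes tested have one. Biotypes and positions come from RefSeq on GRCh38.p14, promoters from RefSeq on GRCh38.p14, and the *EIF3C* and *EIF3CL* transcripts from GENCODE on GRCh37, aligned with Biopython 1.88. Genes reaching an FPKM of 1 in 2 or more libraries were taken as log2(FPKM + 1), where the pseudocount of 1 understates changes of low genes. limma 3.58.1 (R 4.3.3) was used to fit line means over all 8 libraries (eBayes with a trend, 4 residual degrees of freedom), with Benjamini-Hochberg adjustment of two-sided p-values over all genes tested within each comparison (threshold 0.05). With 2 libraries against 2, an exact permutation test cannot reach 0.05. The fit was tested on simulated data.

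The genes and lists were chosen with earlier results of these data known. Described in full are genes past the threshold in any comparison, genes whose replicates in any line differ by more than 1 on the log2 scale, *EIF3C* and *EIF3CL*, and the most abundant gene of each functional group. From the other translation genes at most 4 per comparison past the threshold are described, by size of change. Further genes were named after their values were seen. Of the leukocyte markers, 1 is not reported here. The alternatives were a pseudocount of 0.1, all genes unfiltered, a filter at a mean FPKM of 5, scaling to the median, quantile normalization, a constant prior variance (no trend), robust moderation, the compared lines fitted alone, the replicate number as a block, *EIF3C* and *EIF3CL* summed, and each library left out in turn.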

Additional observations from a re-analysis of the deposited data

Results flagged for a closer look

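*EIF3CL* was set apart because its level differed between the overexpression lines, with a log2 difference of FPKM + 1 of 4.71 (WT OE minus DSM OE, SE 0.30). It had 33.5 and 44.2 FPKM in WT OE and 0.843 and 0.241 FPKM in DSM OE libraries. The gene passed the filter through WT OE alone, so the fitted difference is no independent test. The near-identical *EIF3C* had 0.853 and 12.8 FPKM in WT OE and 0.621 and 2.82 FPKM in DSM OE libraries.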

How the results depend on the processing

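Of the 13 calls of initiation factor genes, 13 were kept with a pseudocount of 0.1 and with the robust fit, 12 with no filter, 12 of 12 still tested with the stricter filter, 12 with quantile normalization, 11 without the variance trend, 11 of 11 with *EIF3C* and *EIF3CL* summed, 10 with median scaling and 3 with the compared lines alone. The sign of each call was kept. Among the 13 are the calls of *EIF3CL*, a gene that passed the filter through WT OE alone, so these are no independent tests. With the compared lines alone, which leaves fewer residual degrees of freedom, 1 initiation factor gene was called higher in KD, 0 in WT OE, 2 in DSM OE and 0 in WT OE against DSM OE, among 268, 16, 149 and 0 genes of all kinds. The stricter filter called 460 genes in KD and 110 in WT OE against DSM OE, and 5 initiation factor genes higher in WT OE. In KD, 2 were higher with median scaling and 2 without the trend. Summing *EIF3C* and *EIF3CL* left 0 higher in WT OE against DSM OE. In DSM OE, 2 genes were lower with a pseudocount of 0.1 (*EIF1AD* and *EIF2AK2*), 2 with the stricter filter (*EIF1AD* and *EIF4H*), and 1 (*EIF1AD*) with median scaling, quantile normalization or no trend. What caused these differences between settings was not tested.

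With each library left out in turn, the genes called were 227 to 539 in KD, 129 to 285 in WT OE, 311 to 856 in DSM OE and 23 to 102 in WT OE against DSM OE. Initiation factor genes called higher were 0 to 2, 1 to 2, 2 to 5 and 1 to 1, and lower 0 to 1, 0 to 0, 0 to 1 and 0 to 0. Followed here were the called genes, *DAXX*, *EIF3C* and *EIF3CL*. Of these, fold changes that turned sign were those of *EIF3C* in WT OE against DSM OE without WT OE replicate 2 (-0.43, range to 2.47), of *EIF3CL* in DSM OE without control replicate 1 (0.27) or DSM OE replicate 2 (0.23, range -0.37 to 0.27), and of *EIF3CL* in KD without control replicate 1 (0.0016, range from -0.64), none of which passed the test.

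Same-numbered replicates did not deviate together (correlations of -0.0612 to 0.0425), so the numbers were not taken to pair libraries. A replicate block called 371 genes in KD, 140 in WT OE, 542 in DSM OE and 22 in WT OE against DSM OE, kept 9 of the 13 calls and left 2 initiation factor genes higher in KD. Depth limits what can be said of low genes, and the mapped fragments of a library are not given in the sources used here.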

Other observations

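Of the EIF-named pseudogenes and other non-coding genes, 9 passed the filter. Among them, *EIF4EP2* had 8.05 to 10.7 FPKM, *EIF4HP1* 8.37 to 10.9 FPKM and *EIF2S2P4* 4.35 to 10.3 FPKM. *EIF2S2P4*, a pseudogene of *EIF2S2*, was the only one of the 9 called, higher in DSM OE than in control by 0.83 on the log2 scale (SE 0.15, limma adjusted p = 0.0253). Its ratio to *EIF2S2* in FPKM was 0.0842 and 0.0693 in KD libraries, 0.0809 and 0.0802 in WT OE libraries and 0.0822 and 0.0950 in DSM OE libraries, against 0.0786 and 0.0664 in control libraries. Reads of the parent gene and its copy may be shared, which was not tested.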
